A study of Felis catus with 77 samples.

Results

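The 100 genes described here were those whose RNA in feline fibrosarcoma (T) lay furthest above skeletal muscle (SM), fat or adipose tissue (AT) and the connective tissue nearby (CT) at once. They were chosen by a rule on the counts themselves. The median normalized count of each of 19587 identifiers was taken per tissue. The 8735 identifiers with a T median of at least 50 were kept. They were ranked by the T median plus 1 over the largest of the AT, CT and SM medians plus 1, and the 100 with the largest ratio are the members. Rank 1 has the largest ratio. The T and normal tissue (NT) medians therefore chose the members, and every difference between T and NT given for them is a description. The files name genes only by Ensembl identifiers, which the reference table at hand did not pair with symbols, so members are called by their rank and nothing is said of what they encode.

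Fibrosarcoma is a malignant tumor of cells resembling fibroblasts, which arises in the soft tissue of cats, often under the skin, and grows into the tissue around it. Fat stores lipid in adipocytes, connective tissue consists of fibroblasts in a collagen-rich matrix, and skeletal muscle consists of contractile fibers. A gene high in the tumor and low in all of these can mark a cell state of the tumor or a cell type that the normal tissues hold in small number. In bulk samples, fewer cells of a type and less RNA per cell cannot be told apart.

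The study compared spontaneous tumors of pet cats with unaffected tissue of the same animals, cut from archived paraffin blocks by laser-capture microdissection under the eye of a pathologist. Cats of both sexes and several breeds were included, no agent or genotype was compared, and the same case number marks the same cat. RNA sequencing gave 77 libraries, 30 of T, 16 of AT, 11 of CT and 20 of SM, and each was a separate cat within its tissue. The study's methods do not separate injection-related from other fibrosarcomas, so the T group may hold both.

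Total counts ran from 847003 to 19099337 per library, and the median was 8405497 for T, 2908520 for AT, 3904682 for CT and 12291936 for SM. By correlation with tissue means over 13935 genes, 74 of 77 libraries lay nearest their own tissue. The exceptions were AT of cat 6, nearest SM, and AT of cat 17 and T of cat 11, both nearest CT. The AT library of cat 5 is titled as AT but described as tumor in another label. It was treated as AT, and it correlated best with AT. The 18 libraries whose titles number the cat 11 to 17 stood apart as a set, 7 of them from T and 11 from normal tissue. A median of 18343 genes had a count in their T libraries against 14421 in the other T libraries, and for AT, CT and SM the medians were 16970, 18332 and 16032 against 12687, 13366 and 13289. The ranges did not overlap in T, CT and SM, while in AT cat 5 had 16161 genes, more than cats 12 and 15 with 16077 and 15761. The main results on the members are therefore given with and without these cats. The part of the cats in each result was not tested. Without gene symbols, the labelled tissues could not be checked against their defining markers.

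The median level over the 100 members, on the log2(normalized count + 1) scale, was 7.13 in T (lowest library 4.81, highest 8.29). It was 2.97 in AT (0 to 6.52), 3.40 in CT (0 to 6.84) and 2.25 in SM (0 to 6.92). The tissues overlapped, because the lowest tumors lay below the highest normal libraries. CT of cats 22 and 31, at 5.10 and 5.05, lay above the lowest tumor. The highest library of each normal tissue was from cats 11 to 17. There the median library was at 7.59 for T, 5.54 for AT, 6.84 for CT and 5.23 for SM. In the other cats it was at 7.11, 2.67, 2.78 and 1.59. Among the other cats no overlap was left, since T ran from 5.64 to 7.97 while AT reached 4.09, CT 5.10 and SM 3.45. The same split was seen in detection. Between 95 and 100 members had a count in each T library. In the NT libraries of the other cats a median of 63 members had a count in AT, 76.5 in CT and 61 in SM, against 97, 99 and 88 in cats 11 to 17.

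**Figure D1:**
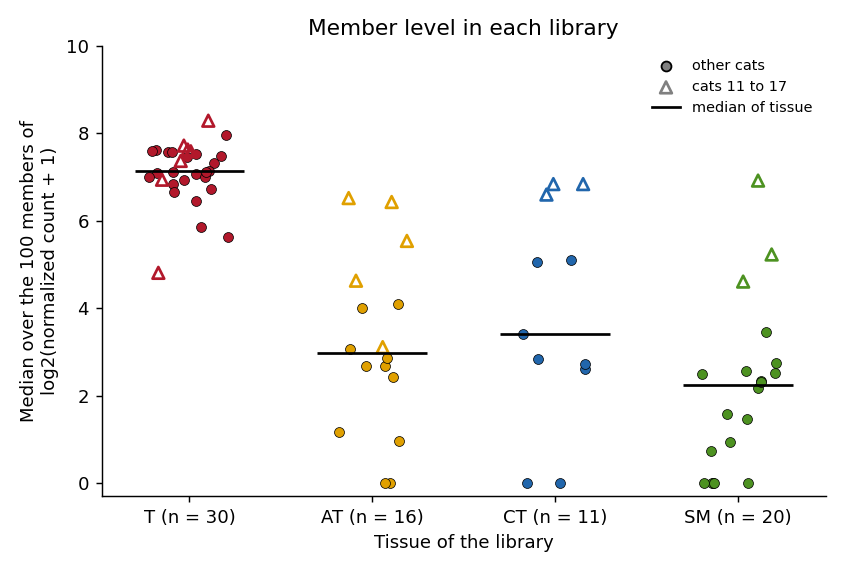
Median over the 100 members of log2(normalized count + 1) for each library (points) by tissue, with the median of each tissue as a line and cats 11 to 17 as open triangles. The T libraries lie between 4.81 and 8.29, and the normal libraries that reach this range are mostly triangles.

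The members took a median of 2.94% of all counts of a T library (0.428% to 5.67%), against 0.151% in AT, 0.377% in CT and 0.0608% in SM. A single member, rank 52, carried much of this. Its normalized count was 7521 in the lowest tumor, 57911 in the median tumor and 177322 in the highest. In AT it ran from 1094 over 3633 to 18844, in CT from 1934 over 5152 to 20541, and in SM from 855 over 2773 to 9245. Only the lowest tumors fell within the normal ranges, and 28 of 30 tumors lay above every normal library. Rank 52 alone made up 54.0% of the members' summed T medians. Normalized counts are not corrected for transcript length, so the size of this share does not rank the genes by molecules.

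Most members had far fewer counts. The T medians ran from 50.9 to 57911 with a median of 129, and were under 100 in 36 members, between 100 and 1000 in 54 and at or above 1000 in 10. The median over members of the tissue median was 7.60 in AT, 10.6 in CT and 2.18 in SM. The ratio that ranked the members ran from 134 down to 6.83, with a median of 11.3. It was over 20 in 23 members, between 10 and 20 in 42 and at or under 10 in 35. Taken from means in place of medians, the ratio of the same members had a median of 4.92 (0.816 to 24.2), and it was under 1 in 1 member, rank 35, whose mean was higher in a normal tissue than in T. Over all 8735 genes the median ratio from medians was 0.817, and 492 genes had a ratio over 2. The edge of the list was not a gap. Rank 100, the last member, had a ratio of 6.83 with a T median of 110, and rank 101, the first gene outside, had 6.77 with a T median of 315. Ranks 99 and 98 had ratios of 6.87 and 6.88, and ranks 102 and 103 had 6.70 and 6.63.

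**Figure D2:**
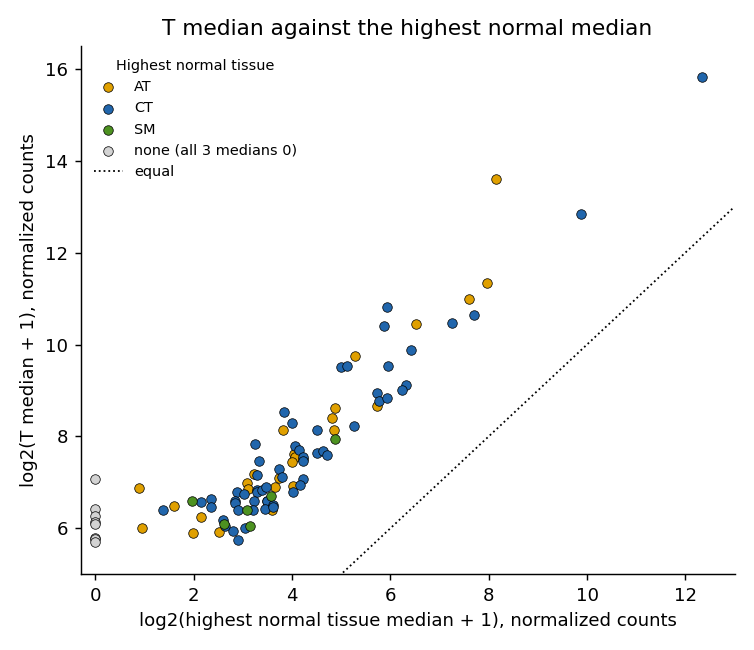
T median against the median of the highest normal tissue for each of the 100 members, both as log2(normalized count + 1), colored by the normal tissue with the highest median. All points lie above the dotted line of equality, as the rule requires, and the 8 grey members have all normal medians at 0.

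At the top of the list stood genes whose normal medians were 0. This held for 8 members in all 3 normal tissues, each of them among the first 9 ranks, with T medians of 50.9 to 133. For these the ratio was the T median plus the added 1, so it had no measured normal level beneath it. ENSFCAG00000026846, rank 1, had 0 normalized counts in the lowest tumor, 133 in the median tumor and 662 in the highest. It was at 0 in 2 of 30 T, 12 of 16 AT, 7 of 11 CT and 14 of 20 SM libraries, and its highest values there were 103 in AT, 39.3 in CT and 93.8 in SM. Tumor and normal values of rank 1 thus overlapped at the low end, while 17 tumors lay above every normal library. ENSFCAG00000001332, rank 2, ran from 0 over 84.5 to 496 in T, and reached 70.9 in AT, 28.3 in CT and 26.7 in SM. It was likewise at 0 in 2 tumors, and 16 tumors lay above every normal library.

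The zeros of these 8 members were unequally spread over the cats. A count was seen in 15.3% of their combinations of member and library in the 36 normal libraries of the other cats, and in 89.8% in the 11 normal libraries of cats 11 to 17. A zero does not exclude a low level, and the part of depth in these zeros was not tested. In the normal library with the smallest size factor, SM of cat 7 at 0.0959, the T median of rank 1 would correspond to 12.7 counts and that of rank 2 to 8.10. Without cats 11 to 17, 13 members had all 3 normal medians at 0.

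Among the normal tissues, the members' highest median was most often in CT. It was in CT for 58 members, in AT for 28 and in SM for 6, and SM had the lowest median in 70. Without cats 11 to 17 the numbers were 47, 25 and 15, so CT remained the most frequent. For single libraries the picture was narrower. The highest of all 47 normal libraries belonged to cats 11 to 17 for 85 members. CT of cat 13 held this place for 22 members, SM of cat 11 for 18, and CT of cats 14 and 17 for 13 each.

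The contrasts between normal tissues were not used for the direction of the rule, although the normal medians entered it as a ceiling. They were tested with edgeR's quasi-likelihood test over all genes, with Benjamini-Hochberg adjustment, and a gene was called at an adjusted p under 0.05 with a log2 fold change beyond 1. Not all members had enough counts in normal tissue for the low-count filter, which 58 of 100 passed for CT against AT, 40 for SM against AT and 48 for SM against CT. Between CT and AT 2 members were called, both higher in CT, where 2.87% of all genes tested were called in that direction. None was lower in CT (4.32% of all genes), with 7 members at an unadjusted p under 0.05 in either direction. No member was lower in CT in DESeq2 either (3.98% of all genes). It called 4 of 70 members tested higher, or 5.71% beside 4.19% of all genes. Between SM and AT 6 of the 40 members tested (15%) were lower in SM, beside 21.1% of all genes. Between SM and CT 16 of the 48 tested (33.3%) were lower in SM, beside 23.8%. By edgeR 0 members were higher in SM in either contrast, beside 13.8% and 15.3% of all genes, with 10 and 19 members at an unadjusted p under 0.05 in either direction. DESeq2 called 0 higher too, beside 11.6% and 11.5% of all genes. With no filter the counts over all 100 members were 3 higher in CT than AT (2.97% of all genes), 6 lower in SM than AT (16%) and 18 lower in SM than CT (19%). In the opposite directions 0 members were called by edgeR with no filter, beside 2.57%, 10.1% and 11.3% of all genes, with 9, 16 and 31 members at an unadjusted p under 0.05 in either direction, and DESeq2 called 0 there too. With no filter, the members' share of calls was thus close to that of all genes for higher in CT than AT and for lower in SM than CT, and below it in the other directions. For lower in SM than AT this depended on the setting. With the cat fitted as a block 8 of 40 members were called, beside 19.4% of all genes. Without edgeR's TMM scaling 32 of 40 were called, beside 62.5%. In all other settings the members' share was below. The differences between these shares were not tested. A gene high in any normal tissue could become a member only with a still higher T median, so a lower share is no finding about the members. Without cats 11 to 17, 4 of 35 members tested (11.4%) were lower in SM than AT, beside 19.3% of all genes.

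Rank 85 was called in both CT contrasts. Its normalized count in CT was 108 in the lowest library, 940 in the median and 3020 in the highest. In AT it ran from 2.53 over 203 to 1031, and in SM from 0 over 50 to 1046. The CT range overlapped those of AT and SM. The log2 fold change was 1.6 (SE 0.52, edgeR adjusted p = 0.041) for CT over AT and -2.83 (SE 0.68, edgeR adjusted p = 0.00078) for SM over CT. Only cats with both tissues inform a fit with the cat as a block, which for CT and AT were cats 6, 13, 17, 29 and 31. With this block the folds were 2.07 (edgeR adjusted p = 0.078) and -2.26 (edgeR adjusted p = 0.00061), so the first call was lost and the second held. The same was seen without cats 11 to 17, at 1.62 (edgeR adjusted p = 0.11) and -2.45 (edgeR adjusted p = 0.014). In T the same gene ran from 71.6 over 7317 to 44360.

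Rank 18 showed a like order with lower counts. It ran from 0 over 57.2 to 264 in CT, from 0 over 15.5 to 88.2 in AT and from 0 over 8.43 to 120 in SM. All 3 ranges overlapped. The log2 fold change was 2.05 (SE 0.68, edgeR adjusted p = 0.047) for CT over AT and -2.73 (SE 0.75, edgeR adjusted p = 0.0026) for SM over CT, and with the cat as a block they were 1.52 and -1.21, and neither was called (edgeR adjusted p = 0.26 and 0.29). In cats other than 11 to 17 they were 2.01 (edgeR adjusted p = 0.14) and -2.57 (edgeR adjusted p = 0.0098), so the second call held there.

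The counts of calls fell in the same way in the CT contrasts. Between SM and AT the block gave 8 of 40 members lower in SM, in place of 6, beside 19.4% of all genes in place of 21.1%. With the block, edgeR called 0 members higher in CT than AT, beside 0.729% of all genes, with 5 at an unadjusted p under 0.05. Since only cats with both tissues inform a blocked fit, fewer calls there do not show that the differences failed within cats. DESeq2 without the block called 4 (5.71% of those tested, beside 4.19% of all genes). Between SM and CT the block left 8 of 48 members tested lower in SM, or 16.7% beside 19.3% of all genes. Without the block the members' share was 33.3% beside 23.8% with the low-count filter, and 18% beside 19% with no filter. Leaving out cats 11 to 17 gave 0 calls by edgeR between CT and AT (3.66% of all genes), with 5 at an unadjusted p under 0.05, and 10 of 45 members tested lower in SM than CT (22.2% beside 20.1%).

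Rank 63 was lower in SM in both SM contrasts. It ran from 0 over 63.6 to 245 in SM, from 30.4 over 250 to 805 in AT and from 79.0 over 160 to 557 in CT. The values in SM overlapped both. The log2 fold change was -1.67 (SE 0.42, edgeR adjusted p = 0.00081) for SM over AT and -1.24 (SE 0.47, edgeR adjusted p = 0.025) for SM over CT. When the cat was fitted as a block, the folds were -1.30 and -0.77 (edgeR adjusted p = 0.14 and 0.051). Leaving out cats 11 to 17 gave -1.75 and -1.10 (edgeR adjusted p = 0.0036 and 0.094), so the call against AT held. Ranks 86 and 99 were also lower in SM in both contrasts, with log2 fold changes of -2.15 and -1.43 against AT and -1.79 and -1.91 against CT. With the block the folds of rank 86 were of like size, -2.24 and -1.82, but were not called (edgeR adjusted p = 0.067 and 0.075), and without cats 11 to 17 they were -1.67 and -1.24 (edgeR adjusted p = 0.031 and 0.16). Rank 99 was called in both with the block, at -2.29 and -1.90 (edgeR adjusted p = 0.0071 and 0.014). It lost both calls without cats 11 to 17, at -1.24 and -1.42 (edgeR adjusted p = 0.12 and 0.088).

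Between T and each normal tissue all 100 members were tested by edgeR. Since the rule used these contrasts, nothing is read from the counts. Members called higher in T numbered 98 against AT, where 9.08% of all genes tested were called in that direction, 92 against CT (9.06%) and 99 against SM (24.1%). Leaving out cats 11 to 17, the numbers were 100 (12.3%), 96 (11.6%) and 99 of the 99 tested (26.9%). The 3 comparisons share the 30 T libraries. None was lower in T, beside 10.2%, 6.52% and 16.9% of all genes. The median log2 fold change over the members was 3.13, 2.69 and 4.18. Rank 7 was the one member missed in all 3 comparisons. It was at 0 in 5 tumors, with a T median of 54.0 and a highest tumor of 251, while the highest AT, CT and SM libraries had 259, 236 and 354. Its log2 fold changes were 0.80 (SE 0.87), 0.65 (SE 0.95) and 1.80 (SE 0.88), beside a ratio of medians of 55.0. For this member no tumor lay above every normal library, although 10 of 23 did without cats 11 to 17.

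How completely the tumors were set apart from normal tissue differed between members. With all libraries, a median of 14.5 of 30 tumors per member lay above every one of the 47 normal libraries (0 to 28). At least 15 tumors did so in 50 members, beside 3.25% of the 8735 genes. In no member did all 30, and in 7 members none did. Leaving out cats 11 to 17, the median was 19 of 23 tumors, and at least 12 did so in 90 members, beside 5.95% of the 8735 genes. Rank 35 was then the one member in which none did. It had 95.4 normalized counts in the median tumor and 246 in the highest, and reached 395 in CT.

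**Figure D3:**
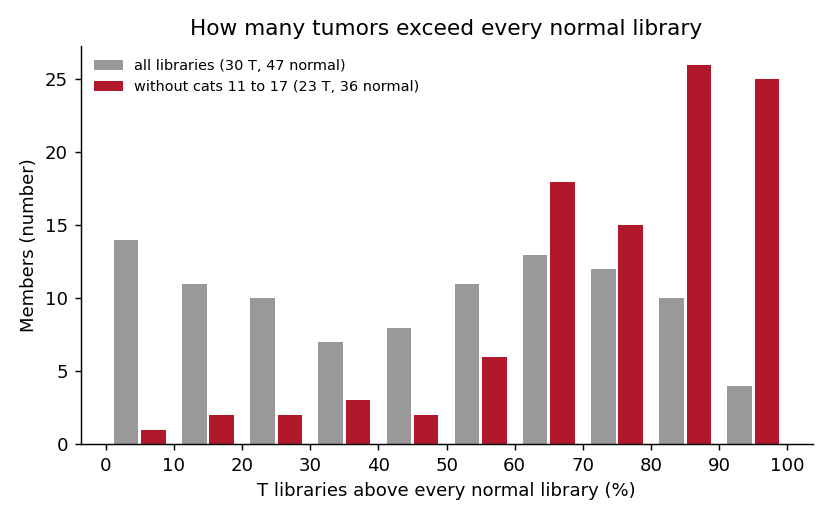
Number of members by the share of T libraries that lie above every normal library, with all libraries (grey) and without cats 11 to 17 (red), in steps of 10 percentage points. The median member had 14.5 of 30 tumors above every normal library with all libraries and 19 of 23 without these cats.

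Without cats 11 to 17, all 23 tumors lay above all 36 normal libraries in 4 members, ranks 15, 20, 67 and 97, and in 6 of the 8735 genes. Rank 15 ran from 95.7 over 363 to 1064 in T, against highest values of 55.8 in AT, 33.3 in CT and 42.4 in SM. Rank 20 ran from 263 over 801 to 1842, against 176, 147 and 117. Both were thus separated by a clear gap between the lowest tumor and the highest normal library. Rank 67 ran from 94.2 over 286 to 941, against 60.6, 58.0 and 45.8. Rank 97 ran from 205 over 556 to 1797, against 62.7, 196 and 186. Here the lowest tumor lay just above the highest CT library. With all cats the ranges met again. The number of tumors above every normal library was then 22 of 30 for rank 15, 28 for rank 20, 22 for rank 67 and 24 for rank 97.

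For each cat, T was compared with its own normal tissue. The difference was taken as log2 of normalized counts plus 1, and summarized by its median over the members. This median was 4.32 for AT (SD 1.51, n = 16 cats, 1.41 to 6.47), 4.19 for CT (SD 2.55, n = 11 cats, -1.62 to 6.92) and 4.99 for SM (SD 1.56, n = 20 cats, 1.25 to 7.05). Over all 8735 genes the median per pair lay between -0.0462 and 0.390. The members were higher in T in 46 of 47 pairs by this median. The exception was CT of cat 14, with a difference of -1.62 and 8 of 100 members higher in T. The T library of this cat had the lowest member level of all tumors, 4.81, and its CT library was at 6.60. CT of cat 22 had the next smallest difference, 1.06, with 64 members higher in T.

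**Figure D4:**
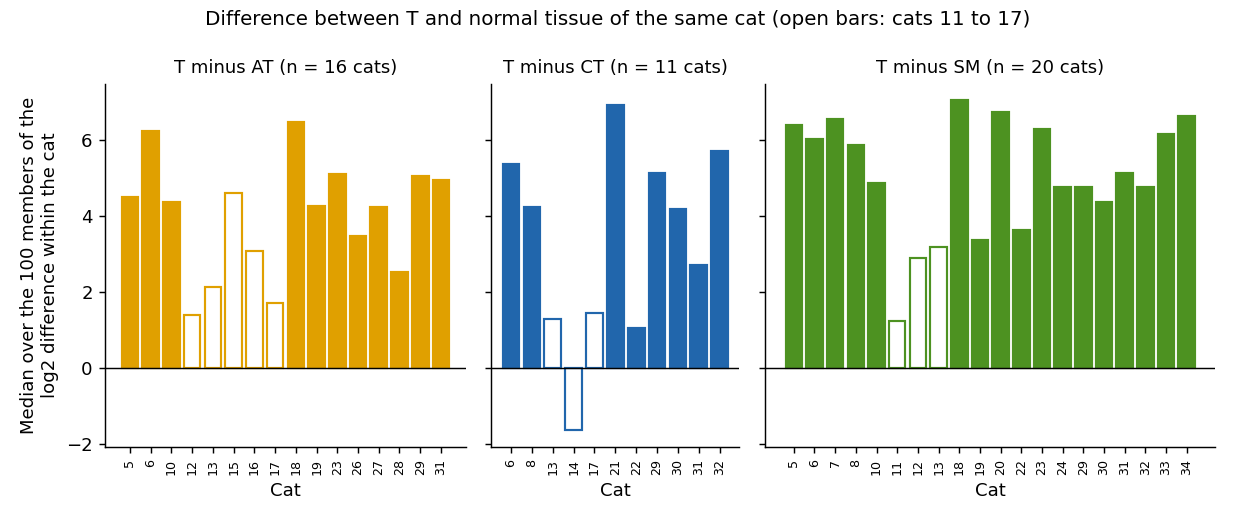
Median over the 100 members of the log2 difference between T and AT, CT or SM of the same cat, one bar per cat, with cats 11 to 17 as open bars. Only the bar of CT in cat 14 lies below 0, at -1.62.

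Cats 11 to 17 had smaller median differences. The median was 2.14 for AT (n = 5), 1.29 for CT (n = 3) and 2.90 for SM (n = 3), against 4.50 (n = 11), 4.69 (n = 8) and 5.88 (n = 17) in the other cats. For SM the 2 sets of cats did not overlap, the highest of cats 11 to 17 being 3.18 and the lowest of the others 3.38. For AT and CT they did, as AT of cat 15 was at 4.62, AT of cat 28 at 2.53 and CT of cat 22 at 1.06. Counted by gene, 56 members were higher in T than in AT in every cat (4.30% of the 8735 genes), 3 were higher than in CT (2.82%) and 50 higher than in SM (7.51%). The low number for CT turned on few libraries. In the other cats the numbers were 74 (7.11%), 51 (7.81%) and 72 (10.6%). Higher in T in all pairs of all tissues was 1 member with all 47 pairs (0.332% of the 8735 genes), and 30 members with the 36 pairs of the other cats (1.65%).

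The members had a wider spread among the tumors than the median gene. The interquartile range over the 30 tumors, on the log2(normalized count + 1) scale, had a median of 1.33 over the members (0.776 to 6.48), beside 0.793 over the 8735 genes, and the members' median was 1.25 in the 23 tumors of the other cats. It was over 2 in 18 members, beside 3.84% of the 8735 genes. The comparison was not matched for level, as the median of the T medians was 129 over the members and 184 over the 8735 genes. The part of low counts in this spread was not tested. Rank 17 had the widest range, with 0 in the lowest tumor, 229 in the median tumor and 36466 in the highest, and was at 0 in 2 tumors. Rank 34 had the narrowest, running from 20.5 over 141 to 349. A count was present in every tumor for 84 members, and the other 16 were at 0 in 1 to 5 tumors. Rank 10 held large counts with a wide span. It ran from 27.1 over 12383 to 55508 in T, while the highest library had 1396 in AT, 3344 in CT and 2036 in SM. Thus 25 tumors lay above every normal library while the lowest tumors lay within the normal range.

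Members also tended to be high in the same tumors, which the rule did not use, since it took one median per tissue. Over the 4950 pairs of members, the median Spearman correlation across the 30 tumors was 0.261, beside -0.000222 over pairs of the 8735 genes. It was over 0 in 83.6% of pairs against 50%, and over 0.5 in 21.4% against 1.41%. The points are the same 30 libraries throughout, which share depth and composition, so these are descriptions. Without cats 11 to 17 the median was 0.210 over 23 tumors. The most alike pair was ranks 48 and 98, at 0.876, and the least alike pair was at -0.516.

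Average-linkage clustering on these correlations, cut into 5 after the values were seen and so not tested, was run on all 30 tumors alone and gave a group of 67 members, a group of 23 and groups of 6, 2 and 2. Within the 67 the median correlation was 0.478, within the 23 it was 0.304, and between both it was 0.0957. The 23 held 12 of the first 20 ranks, ranks 1 and 2 included, against 7 for the 67. The median level of the 67 per tumor ran from 4.77 in cat 14, 5.16 in cat 22 and 5.68 in cat 26, over a median of 7.00, to 7.92 in cat 20 and 8.01 in cat 13. That of the 23 ran from 3.87 in cat 14, 5.01 in cat 10 and 5.05 in cat 26, over 7.78, to 9.44 in cat 9 and 9.57 in cat 6. Both groups were low in cats 14 and 26. The whole profiles of the T libraries of cats 14, 26 and 22 correlated nearly as well with the CT mean as with the T mean, at 0.818 against 0.826, 0.869 against 0.893 and 0.866 against 0.905. In T of cat 11 it was 0.590 against 0.587, with a member level of 7.63, and in T of cat 12 0.702 against 0.742, with 6.94. The part of this in the group levels was not tested. In cat 22 the 67 were low while the 23, at 7.91, were near their median, and in cat 10 the 67, at 7.08, were near their median while the 23 were low. In cat 7 the 67 were at 7.61 and the 23 at 5.47.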

How the data were processed

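Per the labels, total RNA from paraffin sections was made into stranded libraries with a low-input kit. What the authors deposited are raw whole-number counts for each Ensembl identifier. The study's methods name Kallisto on Felis_catus_9.0, while the submitters' processing notes name STAR and featureCounts. Which made the deposited counts is not stated in the sources used here. Counts were divided by median-of-ratios size factors from 6527 genes with a count in every library. Tests used edgeR 4.0.16 in R 4.3.3 (filterByExpr, TMM, quasi-likelihood, Benjamini-Hochberg over all genes tested, adjusted p under 0.05, log2 fold change beyond 1) on the libraries of the tissues compared, without a block. The study's methods name edgeR, TMM and a generalized linear model and do not state whether the cat was a term for RNA. DESeq2 1.42.0 was an alternative. The fits were tested on simulated data with about 200 changed genes at a log2 fold change of 2 or -2, and recovered 95.5% to 100% of them per comparison. Between 1 and 9 unchanged genes were called. The changed genes were drawn only from those above a low expected count, every gene had the same dispersion, and no cat effect was simulated. The recovery therefore does not carry over to members with few counts in normal tissue. Same-numbered libraries come from the same cat. The median correlation of their deviations from tissue means with T was 0.14 for AT, 0.175 for CT and 0.105 for SM, against 0.00496, 0.016 and 0.00239 for different cats. With 0 of 19587 identifiers paired with symbols by the RefSeq table of F.catus_Fca126_mat1.0, marker and pathway lists could not be used and no sequences are shown. The 2 members with the largest ratio are named by identifier and the others by rank. Members and lists were chosen with earlier results of these data known. Alternatives changed the scaling, the added constant, the T median minimum, the summary, the filter, the tool, the block and the libraries. There was 1 library per cat and tissue. P-values without the block measure the spread between cats within each tissue, and ignore that many cats gave both tissues compared. Those with the block measure the spread of differences within cats.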

Additional observations from a re-analysis of the deposited data

How the results depend on the processing

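Of 64 alternative values, 49 stayed within 1.5 times the reported count or within the spread, 15 moved and 0 reversed. The list kept 98 of 100 members with TMM scaling, 88 with total counts, 88 with 10 added in place of 1, 76 without cats 11 to 17 and 80 without libraries under 2000000 counts. It kept 63 with a T median of at least 20 and 55 with means in place of medians. With a T median of at least 200 it kept 34, all members that reach this level. Members called between CT and AT were 2, all higher in CT, beside 2.87% of all genes. They became 4 with DESeq2 (4.19%), 0 with the cat as replicate block (0.729%) and 0 without cats 11 to 17 (3.66%). There was 1 without libraries under 2000000 counts (3.98%) and 1 without AT of cat 6 (2.9%), a setting chosen after seeing the data. Between SM and AT 6 of 40 members tested were called lower in SM (15% beside 21.1% of all genes). With DESeq2 it was 10 of 97 (10.3% beside 16.6%). With no TMM it was 32 (80.0% beside 62.5%), and without libraries under 2000000 counts 3 of 48 (6.25% beside 16.9%). Between SM and CT the 16 calls became 41 with no TMM (64.5% of all genes), 8 with the cat as replicate block and 10 without cats 11 to 17. Leaving out TMM also moved the median log2 fold change of all genes, from -0.23 to -1.36 for SM over AT and from -0.30 to -1.50 for SM over CT. The replicate block changed no other count by over 1.5 times. Higher in T with the block were 98 against AT (10.2% of all genes), 87 against CT (6.93%) and 100 against SM (25.7%). Lower in SM than AT were 8 of 40 members, beside 19.4% of all genes. With the block the members' share there was thus close to that of all genes, while without it the share was below. Calls of T against CT ranged from 71 with no TMM (4.9% of all genes higher in T) to 96 without cats 11 to 17 (11.6%). The share of tumors above every normal library, 48.3% for the median member, was 82.6% without cats 11 to 17. The cause of these changes was not tested. The part of depth was not tested, and shallow libraries differed. CT of cat 13, with 847003 counts, had a count for 98 of 100 members, while CT of cat 21, with 863878, had one for 22.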
